A study of Mus musculus with 12 samples.

Results

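Ribosome biogenesis and nucleolar genes were examined in Paneth and non-Paneth cells from the small intestine of mice with and without the glucocorticoid receptor (GR). The set held 46 named genes out of 55414 genes in the count table. They were chosen by their mouse GENCODE symbols and by what they are known to do, with earlier results of these data known. All 46 were in the table, and all 46 passed the filter on low counts. The set was divided by role into RNA polymerase I and Myc (6 genes), box C/D small nucleolar ribonucleoproteins (snoRNPs, 4 genes), box H/ACA snoRNPs (5 genes), assembly factors of the small ribosomal subunit (16 genes), assembly factors of the large subunit (10 genes) and abundant nucleolar proteins (5 genes).

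Ribosomes are built in the nucleolus, where RNA polymerase I transcribes the long precursor of the ribosomal RNAs. Box C/D snoRNPs guide its methylation and box H/ACA snoRNPs guide its pseudouridylation, while large sets of assembly factors fold and cut the precursor and load ribosomal proteins. Cells that divide or secrete much protein need many ribosomes, and in the crypt this holds for the dividing stem and progenitor cells as well as for the secretory Paneth cells. Myc binds DNA with its partner Max at the E-box CACGTG and is a well known activator of this gene programme.

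The stretches around the E-boxes in the promoters are shown first because Myc is a member of the set and many of the other members are among its textbook targets. RefSeq promoter windows (GRCm38.p6, 250 bases before each transcription start and 50 bases from it) were at hand for 41 of the 46 genes, with no window for Npm1, Bop1, Rrp12, Myc and Fbl. CACGTG, a palindrome that reads the same on both strands, occurred in the windows of 11 of these 41 genes (26.8%) and in those of 8.09% of the 27025 genes of the promoter table. The palindrome bound by GR, AGAACA and TGTTCT with 3 bases of any kind between them, also searched on both strands, occurred in 0 of the 41 genes and in 0.0111% of all genes. A match to these letters is a description of the sequence and not a bound site. The 27025 genes include genes that did not pass the filter on low counts, which all genes of the set passed. The share among genes that passed it was not determined. The stretches below run 5′ to 3′ on the strand of the gene, with CACGTG in capitals.
Rrn3 (chr16:13780472-13780501, +): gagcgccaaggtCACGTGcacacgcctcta
Rrn3 (chr16:13780639-13780668, +): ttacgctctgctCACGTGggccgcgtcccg
Imp4 (chr1:34439696-34439725, +): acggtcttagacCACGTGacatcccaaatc
Nop2 (chr6:125131811-125131840, +): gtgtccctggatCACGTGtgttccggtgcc
Pes1 (chr11:3963965-3963994, +): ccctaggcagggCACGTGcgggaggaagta
Utp4 (chr8:106893643-106893672, +): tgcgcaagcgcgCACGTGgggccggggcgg
Wdr43 (chr17:71616220-71616249, +): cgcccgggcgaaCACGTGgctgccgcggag
Nle1 (chr11:82908355-82908384, -): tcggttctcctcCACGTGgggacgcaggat
Tsr1 (chr11:74898092-74898121, +): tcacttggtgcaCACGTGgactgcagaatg
Ltv1 (chr10:13193092-13193121, -): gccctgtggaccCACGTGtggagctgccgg
Utp20 (chr10:88826765-88826789, -): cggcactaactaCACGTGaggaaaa
Mybbp1a (chr11:72441355-72441376, +): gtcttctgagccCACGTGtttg
Rrn3 held 2 copies, and the stretches of Utp20 and Mybbp1a are short because the window ends there. In Rrn3, Imp4 and Nop2 the CACGTG begins before the transcription start, at -215 and -48, -121 and -60 counted with the start base as 0. In the other 8 genes it begins after the start, from 2 in Pes1 to 40 in Mybbp1a.

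RNA was sequenced from 12 libraries in 4 groups of 3, which were WT Paneth (PC), GRKO Paneth, WT non-Paneth (non-PC) and GRKO non-Paneth cells. The mice were C57BL/6J, 8 to 12 weeks old and untreated as far as the labels say, and the GRKO mice are named GRvillinKO, so that the deletion is driven by the villin promoter, which is active in the whole intestinal epithelium and not in Paneth cells alone. Crypt cells were sorted by flow cytometry. Paneth cells were gated as CD24+ and cKIT+ with a medium to high side scatter, after cells with CD31, CD45 or TER119 had been gated out. How the non-Paneth gate was set is not stated in the labels or the methods. The labels do not say whether each library is 1 mouse, so that p-values measure the spread between these libraries, which may in part be technical.

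Library totals lay between 11126297 and 15910292 counts. Nr3c1, which encodes GR, was at 110.5 to 131 scaled CPM in WT and 13.1 to 24.5 in GRKO non-Paneth libraries, and at 40.9 to 54.1 in WT and 5.82 to 15.4 in GRKO Paneth libraries, lower in GRKO in both fractions (edgeR, adjusted p = 6.66e-05 and 0.0331). Paneth markers summed to at least 419000 scaled CPM in every Paneth library and to at most 1117 in every non-Paneth library. Xist was found at 126.5 to 256.6 CPM in both WT libraries numbered 2 and at no more than 0.5205 CPM in the other 10, so results that rest on these 2 libraries are also given without them. Markers of immune, endothelial and red blood cells summed to at most 29.1 scaled CPM in any library.

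Levels are given as scaled CPM, which is CPM (a gene's share of the library's counts, on a common scale) after the library total was multiplied by the TMM factor that edgeR computes to even out composition. This choice matters here because Paneth libraries spend a large share of their counts on a few granule genes. TMM factors were 0.656 to 0.826 in Paneth, 1.2 to 1.22 in WT non-Paneth and 1.46 to 1.5 in GRKO non-Paneth libraries, so directions were also examined on CPM by library totals alone. Lowest and highest raw counts of the 46 genes in any library were 128 and 19150. Per kilobase of the main transcript, on CPM by library totals, Npm1 was the highest of the 46 in every group, at 236 ± 16.3 (SD, n = 3) CPM per kb in WT and 406 ± 30.8 in GRKO non-Paneth cells. The next in WT non-Paneth cells were Nhp2 at 66.6 ± 2.55, Ncl at 65.5 ± 3.70 and Rrp1 at 62.6 ± 6.54 CPM per kb, which did not differ from each other beyond their spread. Wdr12 and Rrp1b were the lowest in all 4 groups, at 2.43 ± 0.221 and 3.22 ± 0.149 CPM per kb in WT non-Paneth cells. This order rests on the lengths used, 8288 bases for Ncl and 10012 for Wdr12 against 1665 for Npm1. Whether the cells make transcripts of these lengths was not examined. Before the division by length, WT non-Paneth cells had Ncl at 543 ± 30.7 CPM, above Npm1 at 392 ± 27.2. Wdr12 was then at 24.3 ± 2.21 CPM, above Rrp1b at 17.95 ± 0.832.

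The comparison of GRKO with WT in non-Paneth cells asked what loss of GR changed in the other crypt cells. Here 42 of the 46 genes rose and 0 fell (edgeR's quasi-likelihood test, Benjamini-Hochberg adjusted p below 0.05 over 13057 genes), against 17.5% of all genes tested that rose and 19.8% that fell. The median log2 fold change was 0.63, a 1.55-fold higher level, against 0.02 for all genes tested, and the 46 values ran from 0.19 for Polr1c to 1.03 for Rrp12. In 43 genes all 3 GRKO libraries lay above all 3 WT libraries, which was so for 27.8% of all genes tested. Summed over the 46 genes, scaled CPM was 2577 to 2868 in WT and 4279 to 4371 in GRKO non-Paneth libraries. In bulk RNA, more cells of a type and more RNA per cell cannot be told apart.

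Ncl, Npm1 and Fbl, which are commonly used as markers of the nucleolus, were among the genes that rose. Ncl (nucleolin, chr1:86272441-86287208, minus strand, GRCm39), which binds nascent ribosomal RNA, was at 464, 425 and 457 scaled CPM in WT and 782, 770.5 and 826 in GRKO non-Paneth libraries. Npm1 (nucleophosmin, chr11:33100281-33113267, minus strand), the main scaffold protein of the outer nucleolus, was at 335, 302 and 335 in WT and 425, 459.9 and 487 in GRKO libraries. In both genes every GRKO library was above every WT library, with log2 fold changes of 0.82 ± 0.13 (SE; adjusted p = 0.000258) for Ncl and 0.50 ± 0.11 (adjusted p = 0.00298) for Npm1. Fbl (fibrillarin, chr7:27868353-27878701, plus strand), the methyltransferase of the box C/D particles, was at 51.1, 39.0 and 51.9 in WT and 72.5, 78.4 and 83.5 in GRKO libraries. It rose by 0.72 ± 0.13 (log2; adjusted p = 0.000813), with no overlap.

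**Figure D1:**
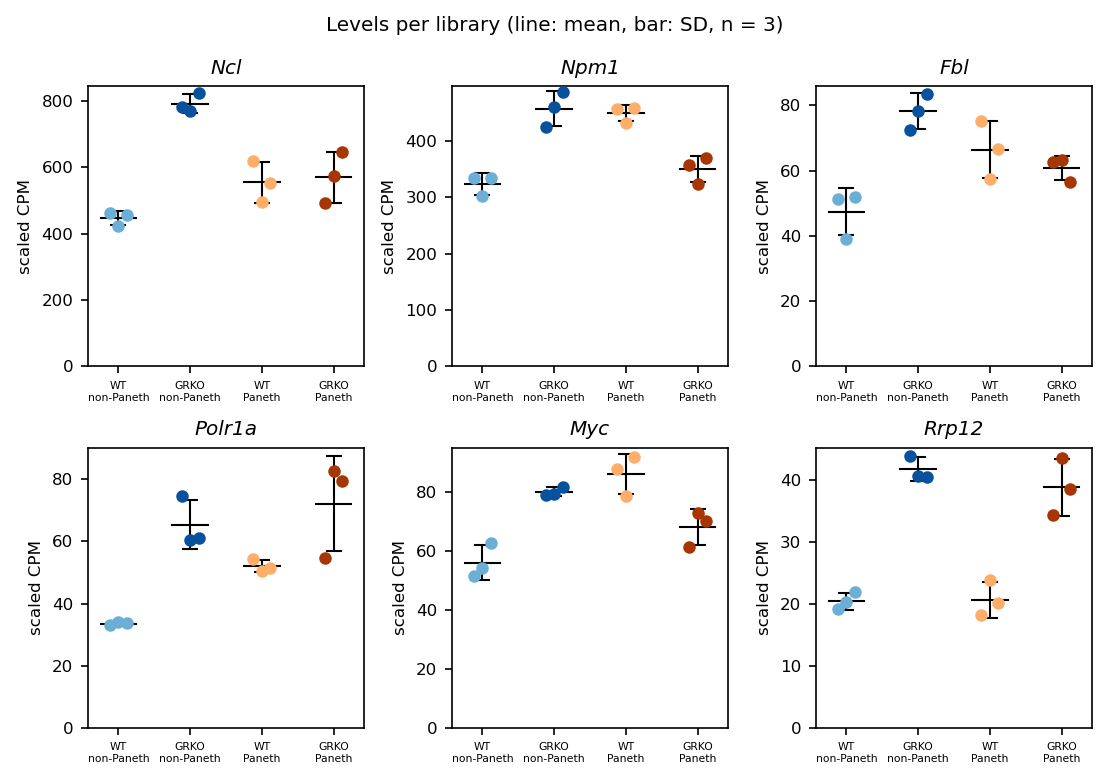
Scaled CPM (TMM) of 6 genes in the 12 libraries, with a point for each library, a line at the mean and a bar for the SD of 3 libraries per group. All 6 genes were higher in every GRKO than in every WT non-Paneth library, while in Paneth cells Rrp12 rose and Myc and Npm1 had lower means in GRKO. On library totals the mean of all 6 genes was lower in WT Paneth than in WT non-Paneth cells, which turns the order of these groups for all of them.

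Of the RNA polymerase I genes and Myc, 5 of 6 rose in GRKO non-Paneth cells. Polr1a (chr6:71886021-71961919, plus strand), the largest subunit of the polymerase, was at 33.0, 34.1 and 33.6 scaled CPM in WT and 74.5, 60.5 and 61.3 in GRKO libraries. Polr1b, another core subunit, was at 32.0, 30.9 and 33.9 in WT and 57.2, 61.8 and 53.0 in GRKO libraries. Neither gene overlapped between the groups. Polr1a was 1.95-fold higher in GRKO (log2 fold change 0.96 ± 0.14, adjusted p = 0.000166), and Polr1b rose by 0.83 ± 0.12 (adjusted p = 0.000115). Myc (chr15:61857227-61862223, plus strand) was at 51.5, 54.3 and 62.6 in WT and 79.0, 79.5 and 81.8 in GRKO libraries, a smaller rise of 0.51 ± 0.12 (adjusted p = 0.00300) without overlap. Rrn3, which recruits the polymerase to its promoter, and Ubtf, which binds ribosomal DNA, rose by 0.43 and 0.40. Polr1c, a subunit shared with RNA polymerase III, was at 42.2, 36.4 and 33.5 in WT and 43.4, 43.2 and 41.6 in GRKO libraries. These groups overlapped and the test was not passed (log2 fold change 0.19, adjusted p = 0.306).

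Most genes grouped with the snoRNPs rose, 3 of 4 with box C/D and 4 of 5 with box H/ACA. Beside Fbl, the core protein Nop58 and Rrp9, a protein of the U3 particle, rose by 0.59 and 0.60. Nop56, the partner of Nop58, had a log2 fold change of 0.33 that missed the threshold (adjusted p = 0.0598) although its groups did not overlap. Nolc1, a chaperone of snoRNPs that was counted here with box H/ACA, had the lowest adjusted p of the set (edgeR, 2.37e-05). It was at 66.0, 60.6 and 72.0 scaled CPM in WT and 135.5, 132 and 122 in GRKO libraries. Dkc1, the pseudouridine synthase, was at 42.4, 38.2 and 50.8 in WT and 70.1, 75.1 and 75.5 in GRKO libraries. Gar1, one of its fixed partners, was at 20.1, 20.01 and 19.7 in WT and 36.3, 34.6 and 36.5 in GRKO libraries. None of these 3 genes overlapped between groups, and the WT libraries of Gar1 were almost level. The other partners differed from Gar1 in size, as Nhp2 rose by 0.38 (adjusted p = 0.0436) and Nop10 was at 49.7, 41.5 and 40.6 in WT and 48.2, 55.9 and 55.3 in GRKO libraries. Nop10 overlapped between the groups and missed the threshold (log2 fold change 0.27, adjusted p = 0.205).

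Among the assembly factors of the small subunit, 15 of 16 rose, with a median log2 fold change of 0.71. Rrp12 (chr19:41847867-41884649, minus strand), needed for maturation and export of the subunit, had the largest change of the set. It was at 19.2, 20.3 and 21.9 scaled CPM in WT and 44.0, 40.7 and 40.5 in GRKO libraries, a log2 fold change of 1.03 ± 0.13 (adjusted p = 4.91e-05). Noc4l, a partner of Nop14, was at 25.6, 26.9 and 31.4 in WT and 53.2, 53.3 and 53.2 in GRKO libraries. The 3 GRKO libraries were nearly equal for Noc4l, and the log2 fold change was 0.93 ± 0.12 (adjusted p = 6.60e-05). Heatr1, an early component of the processome, the particle in which the precursor is first cut, was at 35.3, 36.1 and 50.1 in WT and 80.4, 76.8 and 71.8 in GRKO libraries. Utp4, another early component, was at 23.6, 21.9 and 23.7 in WT and 37.1, 40.8 and 38.3 in GRKO libraries. Both were higher in every GRKO library, by 0.91 and 0.75 on the log2 scale. Among the other processome proteins Utp20, Utp15, Nop14, Wdr75, Rcl1 and Wdr43 rose by 0.58 to 0.87, and the assembly factor Bysl rose by 0.86. Smaller rises were found for Imp4 (0.34), for Ltv1 (0.31), which accompanies the late subunit, and for Nob1 (0.53), the enzyme that makes the end of its RNA. Imp3, which joins the U3 particle to the precursor, was at 30.4, 24.8 and 25.4 in WT and 28.9, 35.7 and 33.4 in GRKO libraries, with overlap and an adjusted p of 0.111.

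All 10 assembly factors of the large subunit rose. Pes1, Bop1 and Wdr12, which form one complex, rose by 0.62, 0.60 and 0.48 on the log2 scale. Rrp1b, a nucleolar protein of the early large subunit, had the largest change of this group and was at 13.9, 15.5 and 15.1 scaled CPM in WT and 29.1, 28.7 and 27.7 in GRKO libraries. Its log2 fold change was 0.94 ± 0.13 (adjusted p = 8.68e-05), against 0.31 for its paralogue Rrp1. The remaining genes, Noc2l, Nop2 (an RNA methyltransferase), Mrto4 (which prepares the stalk of the subunit), Nop16 and Nle1, rose by 0.48 to 0.75. Of the exonic bases of Nle1 and Tsr1, 40.1% and 49.1% are overlapped by genes on the other strand. The strand setting of the counts is not given, and reads that overlap several genes are not counted. Reads from the overlapped stretches may therefore be missing from the values of Nle1 and Tsr1. The other 8 genes with more than 10% of such overlap, among them Dkc1, Nhp2 and Fbl, had 10.5 to 25.1%.

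The remaining nucleolar proteins rose as well, which made 5 of 5 with Ncl and Npm1. Ddx21, a helicase that acts in transcription and processing of ribosomal RNA, was at 100, 92.8 and 100.3 scaled CPM in WT and 193.5, 186 and 173.5 in GRKO non-Paneth libraries. Mybbp1a, a nucleolar partner of transcription factors, was at 153, 131 and 164 in WT and 261, 249.9 and 261 in GRKO libraries. The groups were far apart in both, with log2 fold changes of 0.92 ± 0.12 (adjusted p = 8.37e-05) and 0.78 ± 0.11 (adjusted p = 0.000135). Gnl3 (nucleostemin), a GTP-binding protein of dividing cells, rose by 0.41 (adjusted p = 0.0393).

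**Figure D2:**
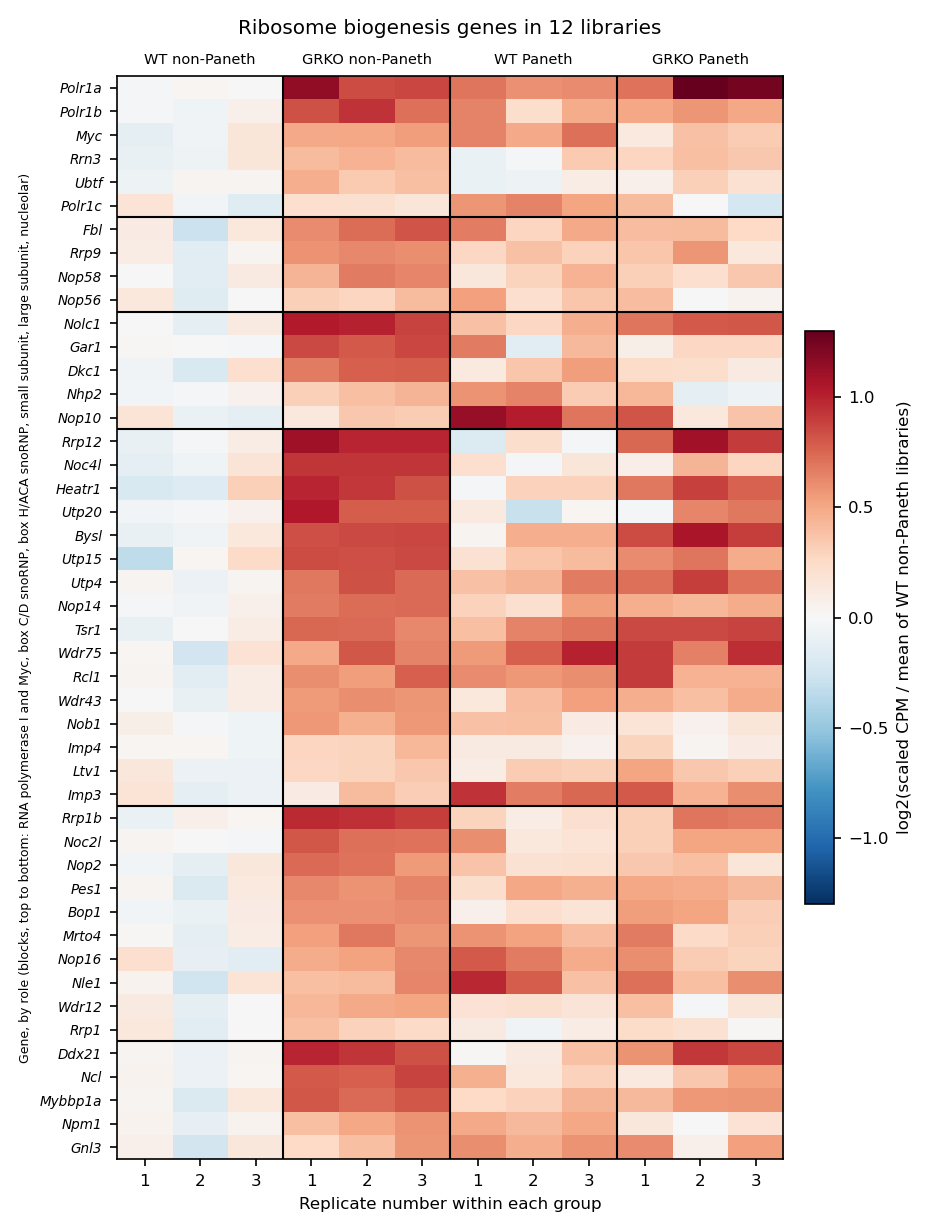
Each of the 46 genes (lines, in blocks by role) in each of the 12 libraries (columns), coloured by the log2 ratio of its scaled CPM (TMM) to the mean of the WT non-Paneth libraries. The GRKO non-Paneth columns are red throughout, with log2 fold changes of 0.19 to 1.03. The Paneth columns are mostly red on this scale, and 44 of the 46 genes were higher in WT Paneth than in WT non-Paneth cells (median 0.35). On library totals 42 of the 46 genes had lower values in WT Paneth than in WT non-Paneth cells.

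On library totals alone the rise in non-Paneth cells was larger. All 46 genes were then called higher, with a median log2 fold change of 0.92, while the median of all genes moved to 0.31. Of all 13057 genes tested, 4345 were called higher on this scale. Every one of the 46 was above the median of all genes under both scalings, and every one was positive in all 16 alternatives run. Of the 42 genes called, 32 were called in all 16 alternatives. Without both WT libraries numbered 2, 34 genes rose, against 1513 of 13267 over all genes tested.

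Markers of other cell states moved with this result. All 7 proliferation markers rose (median log2 fold change 0.71, from 0.51 for Pcna to 0.84 for Mcm2), and their summed level was 830 to 957 scaled CPM in WT and 1423 to 1490 in GRKO non-Paneth libraries. The 8 enterocyte markers were lower in every GRKO library (median log2 fold change -2.29), of which 3 passed the test, and their sum was 23690 to 26200 in WT and 4691 to 5960 in GRKO libraries. Of 5 stem cell markers 3 rose (median log2 fold change 0.56), with sums of 3462 to 4689 in WT and 4470 to 5790 in GRKO libraries. Most of these sums was Olfm4, with means of 3639 in WT and 4680 in GRKO libraries. All 4 tuft cell markers rose from a low level, with sums of 3.12 to 8.78 in WT and 62.8 to 247 in GRKO libraries. Goblet markers, of which 2 of 7 fell, summed to 7121 to 15110 in WT and 6095 to 8539 in GRKO libraries. The 4 enteroendocrine markers, none of which passed the test, summed to 163 to 503 in WT and 311 to 445 in GRKO libraries. The part of these marker shifts in the rise of the ribosome biogenesis genes was not tested.

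**Figure D3:**
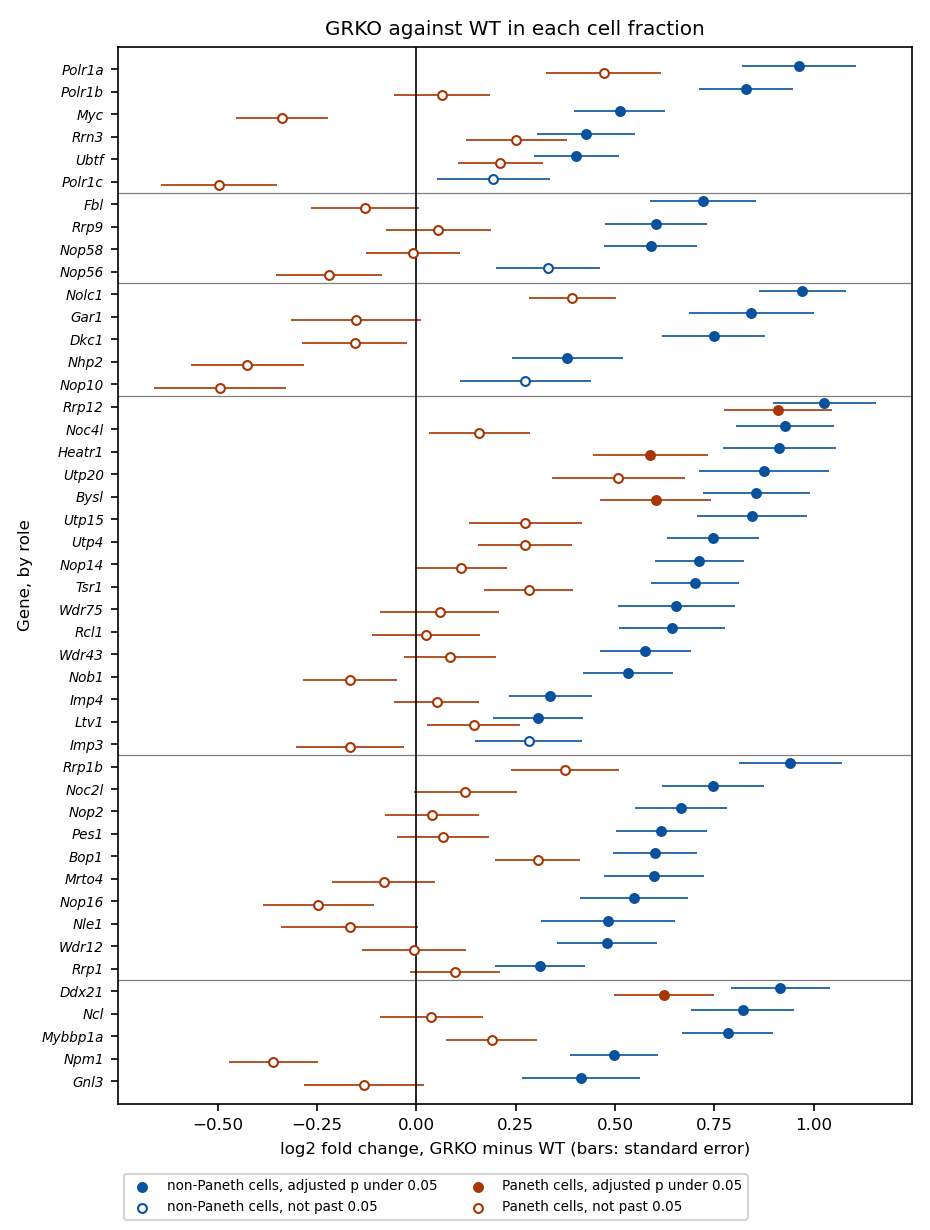
Log2 fold change of GRKO against WT for each of the 46 genes with its standard error, in non-Paneth (blue) and Paneth cells (brown), from the edgeR fit with TMM scaling. Filled points passed an adjusted p of 0.05, which were 42 of 46 genes in non-Paneth and 4 of 46 in Paneth cells.

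A wider list of 103 other ribosome biogenesis genes moved less uniformly in non-Paneth cells, with 58 that rose, 3 that fell and a median log2 fold change of 0.42. The largest rises that passed the test were those of Naf1 (1.08), an assembly factor of H/ACA particles, and Dhx37 (0.91), a helicase of the small subunit. The lowest among those that passed were Riok3 (-0.65), a kinase of the late small subunit, and Eif6 (-0.38), which keeps the subunits apart. Of 12 genes of the Myc network 1 rose and 5 fell. Mycl, a relative of Myc, rose by 0.69, while Max (-0.85), the Max partners Mxd1 (-2.19), Mxi1 (-1.13) and Mxd4 (-0.44), and Mlx (-0.65) fell. The MXD and MXI proteins compete with Myc for Max. The other 6 did not pass the test, with log2 fold changes of 0.19 for Mycn, 0.34 for Mxd3, -0.12 for Mnt, 0.24 for Mga, 0.31 for Mlxip and -1.05 for Mlxipl.

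All 11 genes with CACGTG in the promoter window rose in GRKO non-Paneth cells, with a median log2 fold change of 0.62 and a range of 0.31 to 0.87. Of the 30 genes whose window lacked it, 26 rose, with a median of 0.65 and a range of 0.19 to 0.97. The E-box genes printed above were spread through the set, from Ltv1 (0.31) at the low end to Utp20 (0.87) near the top.

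The same genotypes were compared in Paneth cells. Here 4 of the 46 genes rose and 0 fell, against 1.7% of all genes tested that rose and 1.52% that fell, and the median log2 fold change was 0.06 against 0.03 for all genes. Rrp12 was at 18.2, 23.9 and 20.1 scaled CPM in WT and 34.3, 43.6 and 38.5 in GRKO Paneth libraries, a log2 fold change of 0.91 ± 0.14 (edgeR, adjusted p = 0.0331). Ddx21 was at 98.5, 105.6 and 127 in WT and 147, 185 and 179 in GRKO libraries. Both were higher in every GRKO than in every WT Paneth library, and the change of Ddx21 was 0.62 ± 0.13 (adjusted p = 0.0411). Bysl was at 16.5, 22.4 and 22.4 in WT and 29.0, 33.6 and 30.1 in GRKO libraries (log2 fold change 0.60 ± 0.14, adjusted p = 0.0448). Heatr1 was at 39.7, 49.8 and 49.8 in WT and 65.1, 75.1 and 69.1 in GRKO libraries (0.59 ± 0.15, adjusted p = 0.0449). These 4 genes also rose in non-Paneth cells, and 3 of them are assembly factors of the small subunit.

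These 4 calls lay close to the threshold and depended on the fit. The count fell to 0 when GRKO Paneth replicate 2, WT Paneth replicate 1 or both WT libraries numbered 2 were left out. Over all genes tested these fits called 0, 1 and 1 higher and 0 lower. Without GRKO Paneth replicate 3 or WT Paneth replicate 2 only 1 of the 46 was called. Over all genes these fits called 35 and 42 higher and 6 and 44 lower. Without GRKO Paneth replicate 1 the count was 11 (8 higher, 3 lower), against 928 higher and 691 lower over all genes. In the edgeR fit 16 of the 46 had an unadjusted p below 0.05. The share of all genes tested with such a p was not determined. DESeq2 called 7 of the 46 higher and 4 lower, against 837 higher and 628 lower over all genes. The log2 fold change of Rrp12 stayed between 0.79 and 1.03 in all 16 alternatives, with adjusted p between 1.63e-06 and 0.171.

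The other genes fell on both sides of 0 in Paneth cells. Polr1a was at 54.5, 50.6 and 51.4 scaled CPM in WT and 54.7, 82.7 and 79.3 in GRKO Paneth libraries, with 1 GRKO library close to the WT level and 2 far above (log2 fold change 0.47, adjusted p = 0.0702). Npm1 was at 457, 433 and 459 in WT and 358, 324 and 369.9 in GRKO libraries, all 3 below WT, but the difference of -0.36 did not pass the test (adjusted p = 0.0717). Myc was at 87.9, 78.9 and 92.1 in WT and 61.3, 73.0 and 70.4 in GRKO libraries, again without overlap and without passing (log2 fold change -0.34, adjusted p = 0.0900). The lowest values of the set were those of Polr1c (-0.50), Nop10 (-0.49) and Nhp2 (-0.43). Polr1c was at 55.5, 58.4 and 53.4 in WT and 49.6, 37.5 and 31.8 in GRKO libraries, Nop10 at 96.6, 89.0 and 71.2 against 77.5, 48.3 and 57.0, and Nhp2 at 87.2, 90.6 and 72.9 against 78.1, 53.6 and 55.3. None of these 3 passed the test. Ncl and Fbl overlapped between the genotypes, with 619, 494 and 552 against 491, 574 and 645 for Ncl and 75.1, 57.4 and 66.7 against 62.6, 63.2 and 56.6 for Fbl. In 11 genes every GRKO library was above and in 3 genes every GRKO library was below WT, against 14.2% and 10.2% of all genes tested.

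Summed over the set, scaled CPM was 3394 to 3612 in WT and 3566 to 3706 in GRKO Paneth libraries. The small subunit factors alone summed to 611 to 679 in WT and 747 to 753 in GRKO libraries, without overlap. On CPM by library totals these sums overlapped, at 423 to 515 in WT and 494 to 612 in GRKO libraries. Box H/ACA genes summed to 326 to 349.5 and 293 to 335 scaled CPM, with overlap. Of the 103 other ribosome biogenesis genes 2 rose, Nol6 (0.53), a processome protein, and Efl1 (0.49), a GTPase of the late large subunit, and 0 fell. The 7 proliferation markers summed to 869 to 985 in WT and 829 to 928 in GRKO Paneth libraries, and none passed the test. The 5 stem cell markers summed to 7522 to 8081 in WT and 3887 to 5697 in GRKO Paneth libraries, and none passed the test either. Most of these sums was Olfm4, with means of 7218 in WT and 4402 in GRKO Paneth libraries. The median log2 fold change of the 5 was -0.37, with a range of -0.71 to -0.15. The 4 tuft markers had a median log2 fold change of 1.37. Their sums were 159, 314 and 436 in WT and 815, 1076 and 404 in GRKO Paneth replicates 1, 2 and 3. The 8 enterocyte markers had a median of -1.03 and sums of 576 to 2162 in WT and 744 to 999.7 in GRKO libraries, and neither list had a gene that passed the test. The part of these markers in the Paneth result was not tested.

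**Figure D4:**
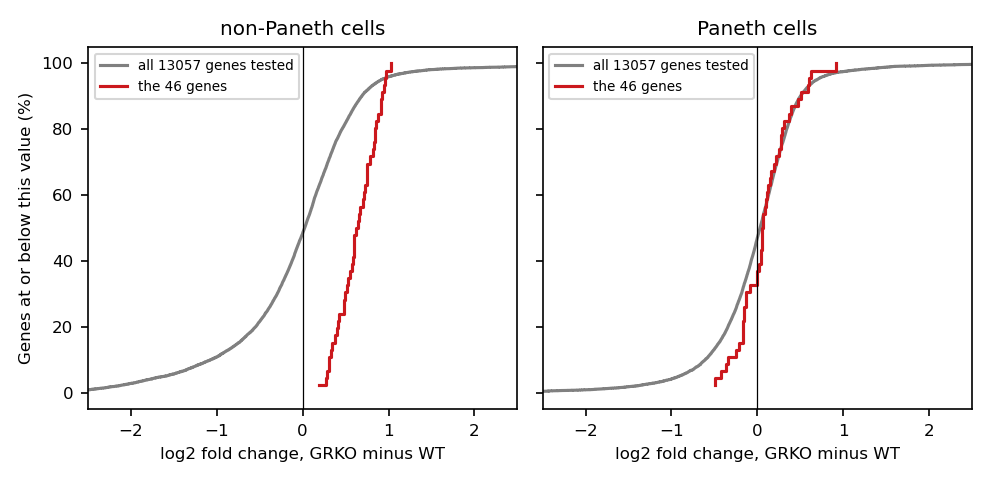
Share of genes (in percent) at or below each log2 fold change of GRKO against WT, for the 46 genes (red) and all 13057 genes tested (grey), with TMM scaling and the horizontal axis limited to 2.5 in either direction. In non-Paneth cells the red curve lies to the right of 0 for all 46 genes (median 0.63), and in Paneth cells 29 of the 46 genes lie above 0 (median 0.06).

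Whether the effect of the genotype differed between the cell fractions was tested with the interaction term, the log2 fold change in Paneth cells minus that in non-Paneth cells. It was negative for all 46 genes and passed the test for 25, all lower, against 7.27% of all genes tested that were lower and 11.5% that were higher. The median was -0.57 against -0.01 for all genes. The largest were those of Gar1 (-0.99 ± 0.23, adjusted p = 0.00834), Dkc1 (-0.90 ± 0.19, adjusted p = 0.00463) and Npm1 (-0.86 ± 0.16, adjusted p = 0.00249). In Paneth libraries Gar1 was at 31.8, 18.1 and 26.6 in WT and 21.0, 24.0 and 24.1 in GRKO, and Dkc1 at 47.7, 56.2 and 63.9 in WT and 51.8, 51.3 and 47.6 in GRKO. Both overlapped between the genotypes there, in contrast to their separate groups in non-Paneth cells. All 5 box H/ACA genes and 3 of 4 box C/D genes were among the 25, with 6 of 10 large subunit genes, 5 of 16 small subunit genes, 3 of 5 nucleolar proteins and 3 of 6 genes of RNA polymerase I and Myc.

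Other genes of the 25 showed the same contrast. Polr1b (-0.77) was at 50.3, 37.8 and 45.0 scaled CPM in WT and 45.6, 48.0 and 45.6 in GRKO Paneth libraries, and Noc4l (-0.77) at 32.5, 27.5 and 31.3 in WT and 29.8, 38.0 and 34.0 in GRKO. Nob1 (-0.70) was at 31.5, 31.7 and 26.1 in WT and 27.3, 25.2 and 27.0 in GRKO Paneth libraries, against 25.5, 23.8 and 23.3 in WT and 35.9, 33.4 and 35.7 in GRKO non-Paneth libraries. Nop16 (-0.79) was at 41.1, 37.5 and 32.8 in WT and 35.8, 29.6 and 28.8 in GRKO Paneth libraries, against 27.4, 21.9 and 21.3 in WT and 32.9, 33.9 and 36.4 in GRKO non-Paneth libraries. For all 4 genes the genotypes overlapped in Paneth cells and were separate in non-Paneth cells.

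Rrp12 had the smallest interaction (-0.12 ± 0.19, adjusted p = 0.708), followed by Ltv1 (-0.16) and Rrn3 (-0.17). Ltv1 was at 37.1, 31.6 and 31.7 in WT and 40.4, 40.9 and 42.6 in GRKO non-Paneth libraries, and at 35.7, 42.1 and 41.6 in WT and 47.9, 42.7 and 41.4 in GRKO Paneth libraries. Rrn3 was at 29.6, 30.2 and 35.2 in WT and 42.2, 43.4 and 42.3 in GRKO non-Paneth libraries, and at 29.9, 31.3 and 40.1 in WT and 38.6, 41.5 and 40.5 in GRKO Paneth libraries. For Rrp12 the rise in the 2 fractions was thus 1.03 and 0.91, and an interaction of this size is within its error. With 1 library left out the interaction was called for 11 to 26 genes, against 25 with all libraries, while its size changed little. It was called for 11 genes without WT non-Paneth replicate 2 (median -0.51). Without both WT libraries numbered 2 it was called for 10 (median -0.53, with 1 gene, Rrp12, no longer negative). Without GRKO non-Paneth replicate 2 or 3 it was called for 15 (medians -0.55 and -0.57). Over all genes tested these fits called 459, 465, 514 and 560 lower, against 949 with all libraries. Dkc1, Fbl, Gar1, Myc, Ncl, Noc4l, Npm1 and Polr1b, 8 genes, were called in all 21 alternatives that were run for the interaction. Proliferation markers (6 of 7), stem cell markers (5 of 5) and tuft markers (3 of 4) were also lower in the interaction, and their part in it was not tested.

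WT Paneth cells were compared with WT non-Paneth cells to place the set in the normal crypt. With TMM scaling 27 of 46 genes were higher in Paneth cells and 0 lower, against 24% of all genes tested that were higher and 26.7% that were lower, with a median log2 fold change of 0.35 against 0.01 for all genes. In 32 genes every Paneth library was above every non-Paneth library, against 27.6% of all genes tested. This direction depended on the scaling. On library totals 0 were higher and 22 lower, against 1097 higher and 7895 lower of all 13057 genes tested. The median was -0.35 while that of all genes moved to -0.68, so that 43 of the 46 genes still lay above it. Summed CPM by library totals was 2225 to 2968 in WT Paneth and 3082 to 3489 in WT non-Paneth libraries, against 3394 to 3612 and 2577 to 2868 on the scaled CPM. Markers of other cell types and states differed between these fractions too. All 5 stem cell markers were higher in WT Paneth cells (median log2 fold change 1.21, sums of 7522 to 8081 against 3462 to 4689 scaled CPM), as were all 4 tuft markers (5.85, 159 to 436 against 3.12 to 8.78) and 3 of 7 proliferation markers (0.21, 869 to 985 against 830 to 957). All 8 enterocyte markers were lower (-5.45, 576 to 2162 against 23690 to 26200), as were all 4 enteroendocrine markers (-1.40, 76.8 to 141 against 163 to 503), and of 7 goblet markers 2 were higher and 3 lower (-0.11, 11380 to 14590 against 7121 to 15110). The part of these markers in the difference was not tested.

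**Figure D5:**
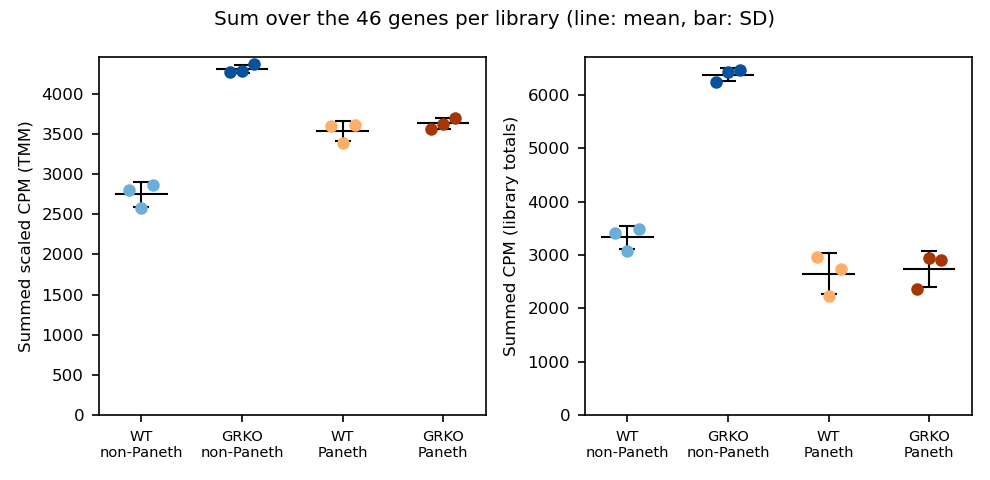
Sum over the 46 genes in each of the 12 libraries, as scaled CPM (TMM, left) and as CPM by library totals (right), with a line at the mean and a bar for the SD of each group of 3. GRKO non-Paneth libraries are the highest on both scales, at 4279 to 4371 and 6238 to 6456, whereas the order of WT Paneth and WT non-Paneth libraries turns with the scale.

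The 3 genes with the largest difference between WT fractions on the TMM scale were Nop10 (0.96 ± 0.17, edgeR, adjusted p = 0.000185), Imp3 (0.79 ± 0.14, adjusted p = 0.000186) and Wdr75 (0.79 ± 0.15, adjusted p = 0.000467). Imp3 was at 51.6, 42.5 and 45.0 scaled CPM and Wdr75, a processome protein, at 35.7, 41.7 and 48.4 in WT Paneth libraries. Nop10 and Imp3, with the 2 largest values here, were among the 4 genes that did not pass the test for GRKO in non-Paneth cells. Myc was higher in WT Paneth cells by 0.62, Polr1a by 0.64, Fbl by 0.49 and Npm1 by 0.47, and Ncl did not pass (0.31, adjusted p = 0.0598). Their WT Paneth levels are those given above for the Paneth comparison. On library totals these 4 differences were -0.07, -0.06, -0.20 and -0.22 and that of Ncl was -0.38, and none of the 5 was called. Utp20 (-0.03), Ubtf (-0.02) and Rrp12 (0.01) differed least on the TMM scale, with signs that turned in other fits. Utp20 was at 41.4, 31.1 and 38.7 in WT Paneth against 37.0, 37.5 and 39.6 in WT non-Paneth libraries, and Ubtf at 97.2, 98.8 and 111 against 98.6, 105.8 and 105.6, with overlap in both. Of the 103 other genes 36 were higher and 5 lower, from Znhit3 (0.84) and Mphosph10 (0.81) to Eif6 (-0.70) and Efl1 (-0.89).

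The same fractions were compared in GRKO mice. With TMM scaling, of the 46 genes 0 were higher and 9 lower in GRKO Paneth than in GRKO non-Paneth cells, against 17.9% of all genes tested that were higher and 21.2% that were lower, and the median was -0.18 against -0.08. A share of 9 in 46 is near that background. The 9 were Noc4l, Gar1, Dkc1, Ncl, Nob1, Npm1, Rrp1b, Nop2 and Fbl. Noc4l was at 29.8, 38.0 and 34.0 scaled CPM in GRKO Paneth libraries, below all GRKO non-Paneth libraries (log2 fold change -0.65 ± 0.12, adjusted p = 0.000715). Gar1 (-0.63 ± 0.16, adjusted p = 0.00534) and Dkc1 (-0.55 ± 0.13, adjusted p = 0.00355) followed, with the values given above. At the other end were Imp3 (0.34), Nop10 (0.19) and Wdr75 (0.19), none of which passed the test and all of which turned negative on library totals. GRKO Paneth libraries had Imp3 at 46.7, 36.7 and 40.7 and Wdr75 at 45.5, 38.3 and 47.2, of which Imp3 was above all GRKO non-Paneth libraries.

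The count in GRKO mice also depended on single libraries and on the scaling. Without GRKO non-Paneth replicate 1 it was 3 lower, without replicate 2 it was 3 lower and 1 higher, and without replicate 3 it was 2 lower. Over all genes tested these fits called 1659, 1742 and 1639 lower, against 2773 with all libraries. On library totals all 46 genes were lower in GRKO Paneth cells, with a median of -1.17 and a median of all genes of -1.05. That scaling called 9969 of all 13057 genes tested lower and 816 higher. The 103 other genes gave 1 higher, Riok3 (0.76), and 14 lower, led by Ddx51 (-0.46), a helicase, and Tex10 (-0.44), a factor of the large subunit. All 7 proliferation markers were lower in GRKO Paneth than in GRKO non-Paneth cells (median -0.68, sums of 829 to 928 against 1423 to 1490 scaled CPM), as were 7 of 8 enterocyte markers (-4.09) and all 4 enteroendocrine markers (-2.19). All 4 tuft markers (2.26) and 2 of 5 stem cell markers (-0.08) were higher, and of 7 goblet markers 3 were higher and 2 lower (0.38). Their part in the difference was not tested.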

How the data were processed

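Single-end reads of stranded TruSeq libraries were trimmed (Trimmomatic 0.39, per the labels), mapped by the authors to mm39 with STAR 2.7.10a and counted per gene during alignment, and the raw counts were deposited as 1 table of 12 columns. The counts carry no normalization, and reads that map to several places or overlap several genes are not in them. Symbols and positions were taken from GENCODE vM39 (54749 of 55414 identifiers named). Genotypes were taken from the sample titles, because the genotype field of the labels goes against them: it gives every Paneth library as WT and every non-Paneth library as GRKO. The level of Nr3c1 follows the titles.

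Tests used edgeR 4.0.16 in R 4.3.3 (TMM, filterByExpr, robust quasi-likelihood fit, 1 mean per group over all 12 libraries) with an adjusted p below 0.05 over 13057 genes. The standard error is the fold change divided by the root of F. The script was tested on simulated data with planted changes larger than any found in the set. How well it recovers changes of the sizes found here was not tested. Every gene of the set is accounted for by role. Values per library were given for Myc, Ncl, Npm1, Fbl and Polr1a, for the 3 highest and 3 lowest changes of each comparison, and for up to 10 called genes with the smallest adjusted p in genotype comparisons and the interaction. The genes of the set and the lists of other genes were chosen with earlier results of these data known. Totals of 11126297 to 15910292 counts gave at least 128 counts for each gene of the set in each library. Libraries of a group differed by more than counting noise (chi-square per degree of freedom 13.2 to 50.4). After group means were removed, WT Paneth and non-Paneth libraries of the same number correlated at 0.23 to 0.35, above the limit of 0.1, and GRKO libraries at 0.01 to 0.47.

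Alternatives were DESeq2 1.42.0, RLE factors, library totals, scaling without Lyz1 and the Defa genes, a fit of only the groups compared, a filter of at least 10 counts in each library of one group, no low-count filter, a trend on GC content and length removed, a replicate block, each library left out, and both WT libraries numbered 2 left out (chosen after seeing the data). Of the 46 genes, 36 had exons in which every 100-base window occurs once in the genome, and the lowest share was 91.2% (Nop56).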

Additional observations from a re-analysis of the deposited data

Results flagged for a closer look

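In 25 genes of the set the effect of the genotype differed between Paneth and non-Paneth cells by the interaction term (edgeR with TMM scaling, adjusted p below 0.05 for each). The difference, as log2 fold change in Paneth minus non-Paneth cells, was -0.99 for Gar1, -0.90 for Dkc1, -0.86 for Npm1, -0.85 for Myc and Fbl, -0.81 for Nhp2, -0.79 for Nop16, -0.78 for Ncl and -0.77 for Noc4l, Nop10 and Polr1b. It was -0.70 for Nob1, -0.69 for Polr1c, -0.68 for Mrto4, -0.63 for Nop2, -0.62 for Noc2l and Rcl1, -0.60 for Nop14 and Nop58 and -0.59 for Mybbp1a. The smallest were -0.58 for Nolc1, -0.57 for Rrp1b, -0.55 for Pes1 and Rrp9 and -0.49 for Wdr43. In 5 of these genes, Myc, Npm1, Nhp2, Nop10 and Polr1c, the Paneth change was below -0.30, and in Nolc1 and Rrp1b it was above 0.30, though none of these passed the test in Paneth cells alone.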

How the results depend on the processing

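The rise in GRKO non-Paneth cells kept its direction in all 46 genes in all 16 alternatives. When a library was left out 33 to 35 genes were called, against 1359 to 1597 higher over all genes tested. Between WT fractions, library totals gave 22 genes, all lower, in place of 27 higher, against 7895 lower over all genes tested. Of the 44 genes with a positive value 40 turned negative there, and of the 10 positive in GRKO mice all 10. Among the genes named by the rule these were -0.072 for Myc, -0.38 for Ncl, -0.22 for Npm1, -0.20 for Fbl, -0.058 for Polr1a and -0.70 for Rrp12, and in GRKO mice -0.81 for Polr1a, -0.65 for Imp3, -0.80 for Nop10 and -0.79 for Wdr75. Without a filter the WT count was 16, and with a library left out 21 to 33. Over all genes tested these fits called 2955 and 2793 to 3393 higher. In GRKO mice the count of 9 became 5 (1 higher, 4 lower) with at least 10 counts in every library of one group. It was 46 on library totals, where 9969 of all genes tested were called lower, and 2 to 10 with a library left out. In Paneth cells the count of 4 became 11 (7 higher, 4 lower) with DESeq2, 8 (6 higher, 2 lower) without a filter, 2 with the GC and length trend removed, 0 when only the groups compared were fitted, 0 on library totals, 0 without both WT libraries numbered 2, and 0 to 11 with a library left out. Over all genes tested, Paneth calls went from 222 higher and 198 lower to 837 and 628 with DESeq2. They were 85 and 71 with the trend removed, 0 and 0 with only the groups compared, and 0 and 2 on library totals. The interaction was called for 10 genes of the set without both WT libraries numbered 2 and for 11 to 26 with a library left out. The cause of these changes was not tested.

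With the replicate block the counts were 25 for WT fractions, 9 for GRKO fractions, 5 in Paneth cells, 42 in non-Paneth cells and 26 for the interaction. Of the genes named by the rule, the block added Polr1c in Paneth cells (-0.51, adjusted p = 0.0352) and changed no other call.

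Values near 0 also changed sign without being called in either fit. Between WT fractions the filter of 10 counts, scaling without Lyz1 and the Defa genes and the removal of both WT libraries numbered 2 gave 0.067, 0.033 and 0.082 for Utp20 and 0.081, 0.048 and 0.041 for Ubtf. Rrp12 was at -0.038 without a filter and -0.090 without that WT pair. With 1 library left out Utp20 ranged from -0.13 to 0.081, Ubtf from -0.079 to 0.099 and Rrp12 from -0.10 to 0.15, and Nop10 in GRKO mice ranged from -0.017 to 0.34. In Paneth cells Ncl was at -0.016 with the filter of 10 counts, -0.018 with only the groups compared, -0.015 with scaling without Lyz1 and the Defa genes, -0.048 with the trend removed, -0.038 without the WT pair numbered 2, and -0.057 to 0.14 with 1 library left out. The interaction of Rrp12 was 0.0062 without the same pair.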
